A study of Mus musculus with 5 samples.

Results

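RGS proteins (regulators of G protein signalling) were followed in 8 genes, Rgs1, Rgs2, Rgs3, Rgs10, Rgs14, Rgs16, Rgs18 and Rgs19, out of 18193 genes that the arrays name by a single symbol. All probe sets whose platform annotation gives only the symbol of a member were taken, 18 in all. A probe set is the group of short oligonucleotides on the array that reads out a transcript. Rgs1, Rgs10 and Rgs14 had 1 probe set each, and the other 5 members had several.

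The arrays compared CD8 T cells of a single antigen specificity from 2 sources. The G9C8 clone group held 3 arrays, each from a separately frozen vial of a cytotoxic T cell clone kept in culture, so that its spread is that between vials of 1 clone. The NOD.G9C8 transgenic group held 2 arrays, each from the spleen cells of a separate mouse, aged 4 to 8 weeks, on the NOD/LtJ background. Before harvest all cultures had 3 days with insulin B peptide (10 µg/ml), followed by 2 days with IL2 (5 IU/ml). The design sets a cultured clone against primary cells of the same receptor after the same stimulation. The labels name neither the promoter of the receptor transgene nor the strain from which the clone came, and they name no sort before RNA extraction.

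A receptor of the G protein-coupled class loads GTP onto the alpha subunit of its G protein, which then parts from the beta and gamma subunits, and both parts signal. RGS proteins speed up GTP hydrolysis by the alpha subunit and so shorten the signal. In lymphocytes they are best known for limiting responses to chemokines, whose receptors couple to Gi proteins. Rgs1, Rgs2, Rgs16 and Rgs18 are small proteins with little beyond the RGS domain, Rgs3 also exists in long forms, and Rgs14 carries further domains that bind Ras-type GTPases and inactive Gi alpha.

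The family was divided between the cell sources. Rgs1 and Rgs2 were higher in the clone, Rgs10 and Rgs3 were lower, Rgs14 was slightly higher, Rgs16 and Rgs19 did not pass the test, and Rgs18 was too dim to be tested. By the brightest probe set of each gene, 7 of the 8 members passed the filter, a mean signal of at least 88.2 over the 5 arrays, and in all 7 the mean of each group was above that level. Of these 7 members, 3 were called higher in clone, against 22.0% of all 12446 genes tested, and 2 were called lower, against 21.7%. In total 5 of 7 were called, where 43.8% of all genes were, and the 2 groups of arrays did not overlap in 6 of 7, where this held for 64.5% of all genes. Calls are from limma at a Benjamini-Hochberg adjusted p under 0.05 over all genes tested. Differences are given as clone minus transgenic on the log2(signal + 20) scale, which understates those of dim genes. The median difference of the 7 members was -0.05, beside -0.01 over all genes tested.

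The identity of the material was read from marker genes. All 7 T cell markers had signals of at least 1079 on every array, but they were not level between the groups: Cd2 (-1.75), Cd8a (-0.68), Cd8b1 (-0.65) and Cd3d (-0.49) were called lower in clone, and Cd3e, Cd3g and Cd5 were not called. Of the CD4 T cell markers, Cd4 was dim, with 32.1 to 44.2 on clone arrays and 50.6 and 39.1 on transgenic arrays, whereas Zbtb7b (381.7 to 429.9 on clone arrays, 371 and 398.7 on transgenic arrays) and Foxp3 passed the filter and were not called.

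Some markers of other spleen cells differed as well. Of 9 myeloid markers 8 were tested and 7 called lower in clone, where 21.7% of all genes were, but 4 of these (Cd14, Fcer1g, Tyrobp and Cybb) passed the filter only through the transgenic arrays. Cd68 was not called and was higher on all clone arrays, with 569.8, 827.5 and 627.2 against 398.9 and 546. The summed signal of the 9 was 1440 to 1855 on clone arrays, against 5967 on the first and 9137 on the second transgenic array. Of the transgenic sums, Lyz2 gave 3497 and 5549. Megakaryocyte and platelet markers summed to 1182 to 1378 on clone arrays, against 2036 and 2601 on transgenic arrays. Of the transgenic sums, Pf4 gave 931.5 and 1626, against 64 to 107.8 on clone arrays. Pf4 was called lower in clone, Gp6 was called higher and 2 were not called. Of the markers uncalled or untested, Itga2b was higher on all clone arrays, Ppbp was lower on all, and Gp9 and Gp1bb overlapped. Of 5 B cell markers tested, Cd79b was called lower (-3.92) and 4 were not called. The B cell sum was 804.3 to 1153 on clone arrays, against 1685 and 1540 on transgenic arrays, of which Cd79b gave 654.5 and 594. Apart from Blk, which was lower on all clone arrays, the other B cell markers overlapped between the groups. Of 4 dendritic cell markers tested, Itgax and Zbtb46 were called lower and 2 were not called, with sums of 544.3 to 620.8 on clone arrays, against 905.5 and 1416 on transgenic arrays. Of the NK cell markers only Eomes, which CD8 T cells also express, was tested, and it was called lower (-4.14). The list summed to 141.2 to 181.3 on clone arrays, against 1594 and 1755 on transgenic arrays, of which Eomes gave 1515.8 and 1700.2. Ncr1, the other NK marker measured, was under the filter in the mean. It overlapped, with 75.9 to 91 on clone arrays and 78.6 and 55.1 on transgenic arrays. Cd79b and Eomes passed the filter only through the transgenic arrays. No tested marker of basophils and mast cells (sums 203.6 to 342.9 on clone arrays, against 416.5 and 456.7) or of erythroid cells (153.7 to 200.4, against 223.0 and 188.8) was called. No marker was listed at 0. The part that RNA of other spleen cells plays in the results on RGS genes was not tested. In such mixed RNA, fewer cells of a type and less RNA per cell cannot be told apart.

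**Figure D1:**
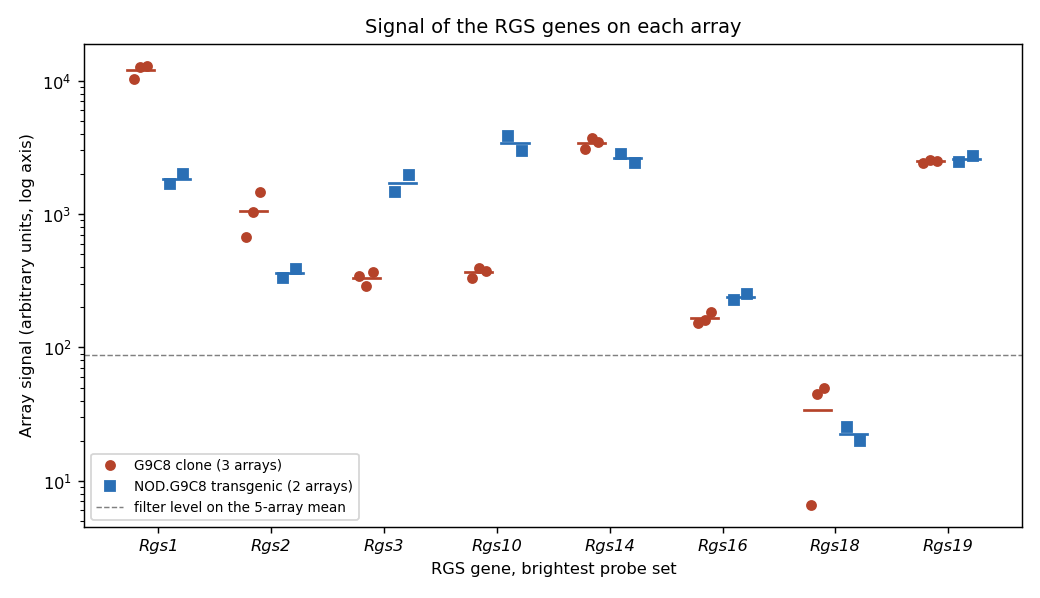
Signal of the 8 RGS genes on each array (log axis), by the brightest probe set of each gene. Red circles are the 3 G9C8 clone arrays and blue squares the 2 NOD.G9C8 transgenic arrays; short lines are group means, and the dashed line is the filter level of 88.2. Clone points lie above the transgenic points for Rgs1, Rgs2 and Rgs14 and below them for Rgs3, Rgs10 and Rgs16, while Rgs18 lies under the filter level in both groups.

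The set of RefSeq upstream sequences used here (GRCm38.p6) covered 5 members, Rgs2, Rgs3, Rgs10, Rgs16 and Rgs19, with 8 transcript starts in all. It held none for Rgs1, Rgs14 and Rgs18. The 250 bases before the start are shown for Rgs2, which was higher in clone, and for Rgs10 and Rgs3, which were lower, so that the sequences of members on both sides can be set beside each other. Each is written 5′ to 3′ on the strand of the gene, and capitals mark TGACG, the core of the cAMP response element, on either strand.
Rgs2 (chr1:144004150-144004399, minus strand): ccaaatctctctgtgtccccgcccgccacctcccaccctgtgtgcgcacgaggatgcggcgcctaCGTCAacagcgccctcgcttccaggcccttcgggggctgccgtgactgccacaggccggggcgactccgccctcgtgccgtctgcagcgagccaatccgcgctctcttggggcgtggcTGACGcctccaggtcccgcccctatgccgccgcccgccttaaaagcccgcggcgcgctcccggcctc
Rgs10 (chr7:128418173-128418422, minus strand): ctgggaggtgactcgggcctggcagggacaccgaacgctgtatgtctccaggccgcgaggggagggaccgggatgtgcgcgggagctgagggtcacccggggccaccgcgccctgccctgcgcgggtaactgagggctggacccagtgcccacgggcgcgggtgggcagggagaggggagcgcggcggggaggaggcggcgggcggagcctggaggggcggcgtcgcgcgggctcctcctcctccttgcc
Rgs3, upstream start (chr4:62559597-62559846, plus strand): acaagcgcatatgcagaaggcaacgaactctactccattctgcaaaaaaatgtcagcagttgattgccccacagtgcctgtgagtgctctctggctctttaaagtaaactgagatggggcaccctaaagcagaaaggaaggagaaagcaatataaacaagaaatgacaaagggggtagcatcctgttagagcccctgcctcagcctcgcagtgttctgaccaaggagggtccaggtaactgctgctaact
Rgs3, downstream start (chr4:62619422-62619671, plus strand): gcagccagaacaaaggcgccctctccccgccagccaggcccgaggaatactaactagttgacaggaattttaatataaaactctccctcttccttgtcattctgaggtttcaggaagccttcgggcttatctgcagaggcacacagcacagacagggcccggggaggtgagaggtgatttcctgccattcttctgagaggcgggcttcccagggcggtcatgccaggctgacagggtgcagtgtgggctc

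The core TGACG occurred at 2 places in the Rgs2 sequence, beginning 185 and 67 bases before the start, and at none of the other 7 starts of these members. It was present in 17.8% of all 32851 upstream windows of 250 bases. The full element TGACGTCA, which contains the core on both strands, was in none of the 8 windows and in 1.55% of all. All motifs were searched on both strands. The NFAT core GGAAA had 1 match before the downstream start of Rgs3, 2 and 1 before 2 of the 3 starts of Rgs19 and none elsewhere, and was present in 55.6% of all windows. The AP-1 element TGANTCA (6.75% of all windows) and the E-box CACGTG (6.02%) were in none of the 8. The GC box GGGCGG had 4 matches before Rgs2, 2 before Rgs10, 1 before the downstream and 0 before the upstream start of Rgs3, with 2 before Rgs16 and 2, 1 and 0 before the starts of Rgs19, and was present in 32.7% of all windows. The Rgs19 windows with 2 and 1 matches overlap, and 1 GC box is counted in both. Guanine and cytosine made up 72.4% of the window of Rgs2, 76.4% of that of Rgs10, and 48.4% and 56.8% of the upstream and downstream windows of Rgs3. A match describes letters in a window and was not tested as a binding site.

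Rgs1, a GTPase activator for Gi and Gq alpha subunits that restrains chemokine-driven migration of lymphocytes, rose the most of the members. Its probe set (1417601_at) gave signals of 10376.9, 12658.8 and 12924.1 on the 3 clone arrays, against 1675 and 2004.9 on the transgenic arrays. Every clone array lay far above both transgenic arrays, and each group was tight. The group means were 11987 ± 1400 in clone and 1840 ± 233 in transgenic cells (SD, n = 3 and 2). The difference was 2.69 (SE 0.12, 95% confidence interval 2.41 to 2.97; limma adjusted p = 1.42e-06), or 6.45-fold. By size of the difference in either direction, Rgs1 ranked 296 of 12446 genes.

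Rgs2, which acts preferentially on Gq alpha, was also higher, with a wide spread between vials. By its brightest probe set (1419247_at) it gave 671, 1046.2 and 1462.7 on clone arrays, against 329.3 and 390.5 on transgenic arrays. The lowest clone array was above the higher transgenic array, but the clone arrays differed among themselves more than 2-fold. The means were 1060 ± 396 in clone and 359.9 ± 43.3 in transgenic cells (SD, n = 3 and 2), a difference of 1.44 (SE 0.28, interval 0.81 to 2.07; limma adjusted p = 0.00313).

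No other probe set of Rgs2 was called, and 2 of the other 3 passed the filter. The probe set 1419248_at gave 315.9, 645.2 and 1056.5 on clone arrays, against 329 and 308 on transgenic arrays. Here the groups overlapped, since the first clone array lay between both transgenic arrays (difference 0.88, interval -0.02 to 1.78; limma adjusted p = 0.107). The probe set 1447830_s_at gave 135.2, 179.8 and 298.9 on clone arrays, against 105 and 100.9 on transgenic arrays (difference 0.80, interval 0.12 to 1.49; limma adjusted p = 0.0606). On all 3 tested probe sets the first vial was the lowest and the third the highest of the clone arrays. The fourth probe set of Rgs2 (1443250_at) was dim throughout, with signals of 13.3 to 15.9 on clone arrays and of 24.8 and 10.9 on transgenic arrays.

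Rgs16, which is induced in activated T cells and acts on Gi and Gq alpha, was dim and not called. Its brightest probe set (1455265_a_at) gave 153.7, 159.6 and 183.3 on clone arrays, against 225.8 and 251.8 on transgenic arrays. All clone arrays were below both transgenic arrays, yet the difference of -0.48 (SE 0.19, interval -0.91 to -0.05) had an adjusted p of 0.0700 in limma. Without an intensity trend in the moderation of the variances the adjusted p in limma was 0.0276. In the limma fit on means over probe sets it was 0.0467. For Rgs16 only this set entered that fit, so the difference was the same. Both further probe sets were under the filter level in the mean. One of them (1426037_a_at) gave 9, 4.7 and 7.7 on clone arrays against 55.6 and 60.4 on transgenic arrays, and the other (1451452_a_at) gave 25.2, 17.5 and 53.1 against 71.2 and 24.7, with overlap.

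Rgs18, best known from platelets and their precursors, stayed near the bottom of the arrays' range in both sources. The brighter probe set (1449856_at) gave 6.6, 44.9 and 49.6 on clone arrays, against 25.2 and 19.8 on transgenic arrays. The second (1420398_at) gave 12.1, 29.2 and 34.8 on clone arrays, against 3.1 and 34.8 on transgenic arrays. Neither passed the filter, the groups overlapped on both, and no test was made.

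Rgs3, a GTPase activator for Gi and Gq alpha with forms of very different length, fell on every probe set. The brightest (1425296_a_at) gave 344.3, 291.4 and 367.6 on clone arrays, against 1462.6 and 1976.5 on transgenic arrays. The clone arrays were close together and all lay below the transgenic arrays. The means were 334.4 ± 39.0 in clone and 1720 ± 363 in transgenic cells (SD, n = 3 and 2), with a difference of -2.29 (SE 0.17, interval -2.66 to -1.91; limma adjusted p = 1.77e-05).

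The other 3 probe sets of Rgs3 were also called lower, with the dimmest giving the largest difference. The set 1449516_a_at had signals of 346.5, 344.5 and 261.9 on clone arrays, against 1426.4 and 1488.1 on transgenic arrays (difference -2.14, interval -2.49 to -1.79). The set 1425701_a_at had 93.5, 159.2 and 81.1 on clone arrays, against 482.3 and 546.6 on transgenic arrays (-2.07, interval -2.66 to -1.48). The set 1454026_a_at had 9.9, 17.4 and 16.2 on clone arrays, against 308.1 and 280.3 on transgenic arrays (-3.19, interval -3.87 to -2.51), and passed the filter only through its transgenic signals. No array of one group reached into the other group's range on any of the 4. The annotation used here does not say which forms of Rgs3 each set reads.

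Rgs10, a short GTPase activator for Gi alpha found in T cells, macrophages, microglia and platelets, fell the most of the members. Its single probe set (1416882_at) gave 329.6, 393.3 and 375.3 on clone arrays, against 3846.8 and 2953.8 on transgenic arrays. The highest clone array reached well under the lower transgenic array. The means were 366.1 ± 32.8 in clone and 3400 ± 631 in transgenic cells (SD, n = 3 and 2). The difference was -3.14 (SE 0.14, interval -3.47 to -2.81; limma adjusted p = 1.43e-06), or 8.81-fold lower, and it ranked 217 of 12446 genes by size.

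Markers of other cells did not share one order between the 2 mice. Rgs10 was higher on the first transgenic array, while the summed myeloid signal and Lyz2, the macrophage lysozyme gene (3497 on the first and 5549 on the second), were higher on the second. Among platelet markers, the chemokine gene Pf4 was likewise higher on the second (931.5 and 1626), as was the dim Gp9. The other platelet markers were higher on the first: Ppbp (115.5 and 76.2), Itga2b (540.8 and 532.2), Gp1bb (311 and 242.5) and Gp6 (112.4 and 95.6). The B cell marker Cd79b ran in the same order as Rgs10. It had 31.5, 2.7 and 46 on clone arrays, against 654.5 on the first and 594 on the second transgenic array. Cd79a, Cd22 and Blk also ran in that order, but Ms4a1 (165.3 and 180.3) and Pax5 (139.7 and 249.1) ran in the other. Among T cell markers, Cd3d (18700 and 16264.5), Cd8a (15499.8 and 12884.3), Cd3e, Cd3g and Cd8b1 ran in the order of Rgs10. Cd2 (3608.8 and 4443.9) and Cd5 (1429.7 and 1618.4) ran in the other. The source of the Rgs10 signal was not tested. Without the second transgenic array the Rgs10 difference was -3.33, and without the first it was -2.95. For Rgs3 the second transgenic array was the higher on 3 of the 4 probe sets, and its difference was -2.07 without the second array and -2.50 without the first.

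Rgs14, a scaffold that joins Gi alpha and Ras-type signalling, was bright in both sources and slightly higher in clone. It gave 3076.4, 3744.7 and 3494.9 on clone arrays, against 2843.1 and 2422.6 on transgenic arrays (1419221_a_at). The groups did not overlap, but the lowest clone and the higher transgenic array were close. The difference was 0.38 (SE 0.12, interval 0.12 to 0.65; limma adjusted p = 0.0266), or 1.30-fold. The call ended without the second clone (adjusted p = 0.0534), the third clone (0.0677) or the second transgenic array (0.203).

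Rgs19, also known as GAIP, a palmitoylated activator of Gi alpha hydrolysis, gave different answers by probe set. By the brighter one (1417786_a_at) it had 2437.1, 2533.9 and 2523.7 on clone arrays, against 2452.8 and 2742.4 on transgenic arrays. These groups overlapped, and the difference was -0.05 (interval -0.26 to 0.16; limma adjusted p = 0.672). By the other (1434940_x_at) it had 1587.8, 1297.4 and 1427.2 on clone arrays, against 718.6 and 969.4 on transgenic arrays, a difference of 0.76 (interval 0.42 to 1.11; limma adjusted p = 0.00381). The suffix of that second set marks probes that may cross-hybridize with other transcripts. The mean over both sets was higher in clone (0.36, adjusted p = 0.0290), so the direction for Rgs19 depends on the probe set.

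**Figure D2:**
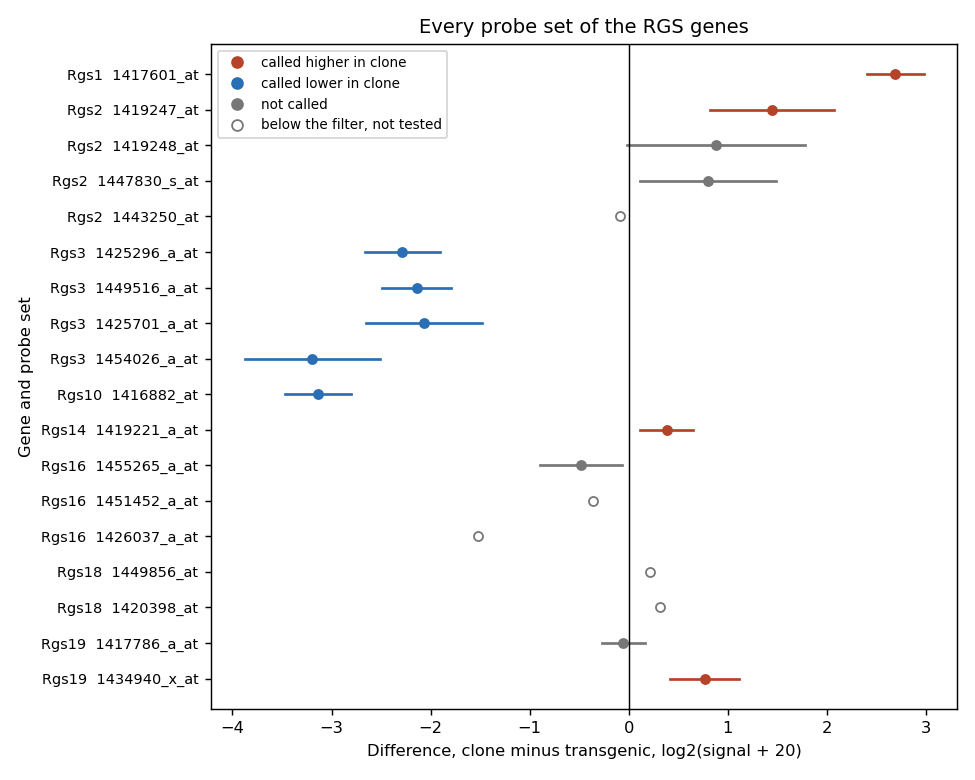
Difference between clone and transgenic arrays on the log2(signal + 20) scale for each of the 18 probe sets of the RGS genes, with 95% confidence intervals from limma where a probe set was tested. Red marks sets called higher in clone, blue sets called lower, grey sets not called and open circles the 5 sets below the filter. All 4 sets of Rgs3 lie between -3.19 and -2.07, whereas both sets of Rgs19 lie on opposite sides of 0.

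Tested one by one, 13 of the 18 probe sets passed the filter; 4 were called higher in clone, 5 lower and 4 were not called, where 41.9% of all 27022 probe sets were called. A stricter test asked whether a difference was larger than 2-fold. Rgs1 was called higher and Rgs3 and Rgs10 were called lower in that test, against 5.79% of all genes called in either direction, while Rgs2 was not (limma's treat, adjusted p = 0.770).

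The members differ in where they lie. Rgs1, Rgs2, Rgs16 and Rgs18 are on chromosome 1, Rgs19 on 2, Rgs3 on 4, Rgs10 on 7 and Rgs14 on 13. In the RefSeq order of protein-coding genes, Rgs2, Rgs13, Rgs1, Rgs21 and Rgs18 follow one another without another gene between them, flanked by Uchl5 and Brinp3. In that stretch the called members, Rgs2 and Rgs1, alternated with RGS genes at very low signal. Rgs13 gave 0.6 to 2.7 on clone arrays and 1.8 and 1.9 on transgenic arrays, and Rgs18 was dim as above. The flanking gene Uchl5, a deubiquitinase gene, gave 2744.9, 1725.8 and 2486.7 on clone arrays, against 1659.9 and 1596.3 on transgenic arrays, and was not called (0.48; limma adjusted p = 0.0597). Brinp3 was dim, with 26.5, 4.1 and 3.6 on clone arrays against 2 and 2.2 on transgenic arrays, and Rgs21 was not analysed here. Rgs16 lies apart, next to Rgs8, which was not called either (-0.30; limma adjusted p = 0.337).

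Of 13 further RGS genes, 11 had a probe set and 6 were tested. Rgs11 was called lower, at 668.2, 790.9 and 689.2 on clone arrays against 1273.8 and 1270.1 on transgenic arrays (-0.82; limma adjusted p = 0.000727). None was called higher, and Rgs9 (0.18), Rgs12 (0.17) and 3 more were not called. Rgs11 and Rgs9 belong to the RGS subfamily that pairs with the beta subunit Gnb5, which was itself higher in clone (1.74; limma adjusted p = 1.20e-05).

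Genes whose centred profile over the 5 arrays lay nearest to a member were sought among all genes tested, by Euclidean distance on the log2 scale. Nearest to Rgs10 were Rasgrp2, a nucleotide exchange factor for Rap GTPases (distance 0.0945), the G protein gamma subunit gene Gng12 (0.149) and Dnmbp (0.283). Rasgrp2 gave 300.2, 365.3 and 370.2 on clone arrays, against 3543.1 and 2859.6 on transgenic arrays. Its group means were both above the filter level, whereas Gng12 and Dnmbp (13.7 to 16 on clone arrays) passed only through the transgenic arrays. Since Rasgrp2 was picked for its closeness to Rgs10, its fall and its higher value on the first transgenic array follow from that choice. Nearest to Rgs1 were Filip1 (0.169), Errfi1, a feedback inhibitor of epidermal growth factor receptors (0.202), and Iqcg (0.217). Filip1 (21.8 and 29.7 on transgenic arrays) and Iqcg (3.9 and 4.5) passed the filter only through the clone arrays. For such dim values the added 20 enters the distance. Errfi1 gave 3144.0, 3888.9 and 3628.3 on clone arrays, against 499.1 and 511.5 on transgenic arrays.

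**Figure D3:**
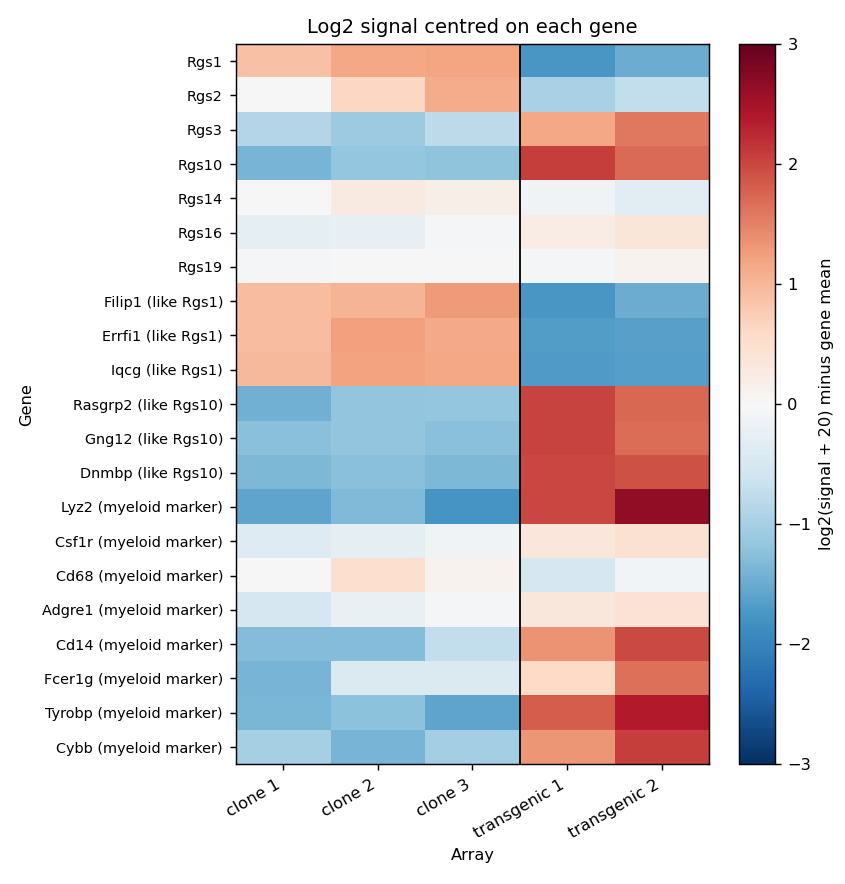
Log2(signal + 20) of each gene minus its mean over the 5 arrays, with clone arrays left of the line and transgenic arrays right of it. Rows are the 7 tested RGS genes, the genes nearest in profile to Rgs1 and Rgs10, and the 8 tested myeloid markers. Rgs10 is higher on the first transgenic array, whereas Lyz2, Tyrobp, Cd14, Cybb and Fcer1g are higher on the second.

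Genes for the proteins that RGS members act on and beside were counted by list, and each count can be read beside the 22.0% higher and 21.7% lower of all genes. Of 12 G protein alpha subunit genes tested, 4 were higher in clone, 3 lower and 5 not called (median 0.15). Gnas, encoding Gs alpha, which is not a usual substrate of RGS proteins, was higher at 11611 ± 496 in clone and 5807 ± 582 in transgenic cells (1.00; limma adjusted p = 6.08e-05). Among the substrates of RGS proteins, the Gi alpha gene Gnai3 was lower (-0.56) while Gnai2 was higher (0.41), and the Gq-class genes Gna15 (0.46) and Gnaq (0.42) were higher while Gna11 was lower (-0.43). Gna13 was lower (-0.41). Gnai2, Gnaq and Gna13 are named after their values were seen. Without the first transgenic array 2 alpha subunit genes were called higher, and without the second 2 were higher and 1 lower. Of 12 beta and gamma subunit genes, 5 were higher, 1 was lower and 6 were not called (median 0.36). Gnb5, Gng3 (2.83-fold) and Gng2 (1.12) were higher, and Gng12 was lower (-3.10), having passed the filter only through its transgenic signals.

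Receptor kinases and arrestins shut off receptors upstream of the G protein. Of 6 tested, the kinase gene Grk5 was higher in clone (954.4 ± 79.3 in clone and 262.9 ± 28.9 in transgenic cells; 1.78), Grk6 was lower (-1.18), Arrb2, encoding beta-arrestin 2, was lower (-0.44) and 3 were not called. Without the first clone or the first transgenic array 1 of these was called lower. Of 9 genes for alpha subunit chaperones, GoLoco proteins and RhoGEFs with an RGS-like domain, 2 were higher, 2 lower and 5 not called. Gipc1, whose product binds Rgs19, was higher (1.00), as was Gpsm3 (0.76), and the RhoGEF genes Arhgef12 (-0.67) and Arhgef1 (-0.34) were lower. Neither of the lower calls was made without the first transgenic array, and 1 was made without clone array 1 or clone array 3.

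Of 11 Gi-coupled trafficking receptors tested, 4 were higher, 4 lower and 3 not called (median -0.19). Ccr2 was higher, with 7315.8, 8951.6 and 8096.6 on clone arrays against 1890.9 and 2902.7 on transgenic arrays (1.78; limma adjusted p = 7.96e-05). Ccr7 (-5.01), Ccr9 (-2.92) and S1pr1 (-2.28) were lower. In the Gs and cAMP pathway 8 of 19 were higher, 5 lower and 6 not called (median 0.48). The regulatory kinase subunit gene Prkar2b was higher by 4.01 and passed the filter only through clone, and the prostaglandin E2 receptor gene Ptger4 (2.26) and the cAMP-responsive factor gene Crem (1.82) were higher. The phosphodiesterase gene Pde8a was lower (-2.54) and passed only through transgenic. The lower calls numbered 3 when clone array 1, clone array 3 or either transgenic array was left out. Of 9 phospholipase C beta, PI3K gamma and Rac effector genes, 2 were higher, 5 lower and 2 not called (median -0.36). The catalytic PI3K gamma gene Pik3cg was higher (1.39), while both of its regulatory subunit genes, Pik3r5 (-1.91) and Pik3r6 (-0.67), and Prex1, a Rac exchange factor (-0.67), were lower. Without the second transgenic array 2 were called lower, and 1 was called higher without the first or second clone array or either transgenic array. For genes of the lists, ± gives the SD of the signals. Differences and tests of these genes are those of the same limma fit. Counts with an array left out are from refits without that array. No list was tested as a whole.

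**Figure D4:**
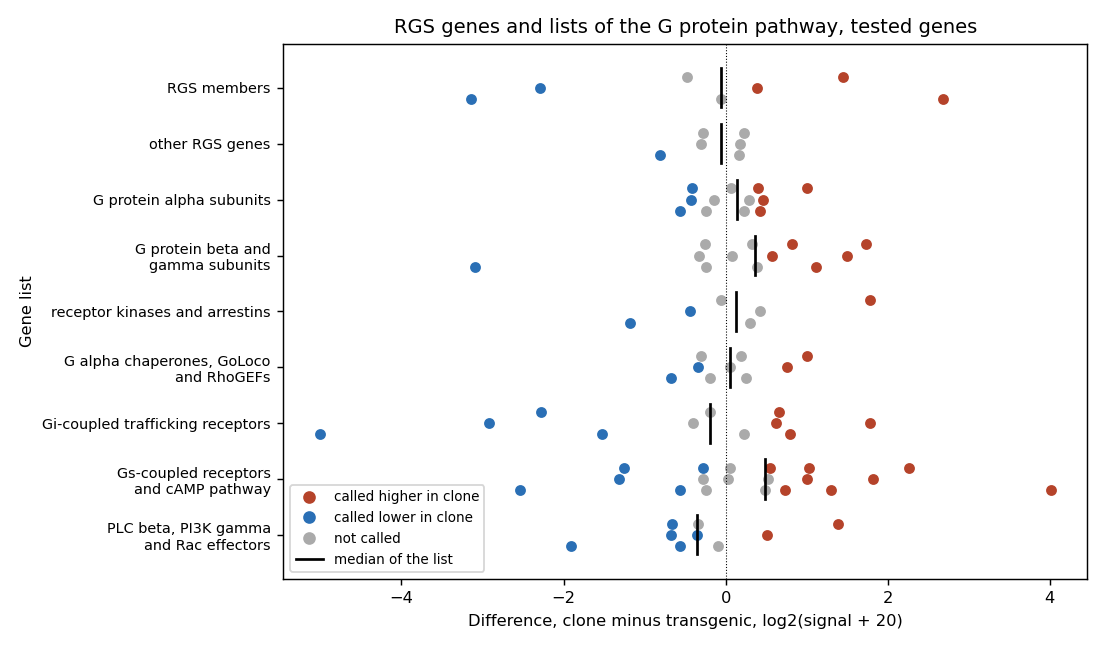
Difference between clone and transgenic arrays on the log2(signal + 20) scale for the tested genes of the RGS family and of 8 lists of the G protein pathway. Each point is a gene, red where called higher in clone, blue where called lower and grey where not called, and the black bar is the median of the list. Medians lie between -0.36 and 0.48, with called genes on both sides of 0 in every list except the other RGS genes, where the 1 called gene was lower.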

How the data were processed

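RNA of 5 cultures (8 µg each) was hybridised to single-colour Affymetrix mouse arrays, per the labels. The deposited signal is a linear-scale intensity computed in GCOS, per the submitters' processing notes; no version or detection call is given. Each array has a 2% trimmed mean of 500, and no further normalization was applied. Precision is limited by the number of arrays (median SE 0.16, log2).

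Of 45101 probe sets, 64 were controls, 34945 had 1 gene symbol in the platform annotation, 932 had several and 9160 none. Log2(signal + 20) was fitted with limma 3.58.1 in R 4.3.3 (lmFit, then eBayes with an intensity trend; 3 residual degrees of freedom) as clone minus transgenic. Genes entered by their brightest probe set, at a mean signal of at least 88.2, the 40th percentile, and p-values were adjusted over all 12446. A second fit took every probe set. The fit was also run on simulated arrays in which far fewer genes differed than were called here. No conclusion is drawn from that run. P-values measure the spread between vials of a clone and between mice.

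The members and lists were chosen with earlier results of these data known. All members, their probe sets, up to 4 called genes of largest difference per list (or bright uncalled genes where fewer than 2 were called), the 3 nearest profiles to Rgs1 and Rgs10, and chromosome 1 neighbours were named. Markers were used as checks. Motifs were chosen after the sequences had been seen. The 18 alternatives varied normalization, filter, pseudocount, probe-set rule, variance model and the arrays used.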

Additional observations from a re-analysis of the deposited data

How the results depend on the processing

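Over 18 alternative settings, Rgs1, Rgs3 and Rgs10 kept their direction and their call. Of 125 recomputed differences of the 7 tested members, 114 kept direction and side of the threshold, 7 lost and 2 gained a call and 2 reversed. Of 72 counts of genes and members, 6 moved by over 1.5 times. Rgs18, not tested, moved within the spread of its arrays but had no stable sign (0.22; -0.030 without the third clone array, 0 with signals under 50 set to 50). Rgs14 (0.38) lost its call without the intensity trend (0.38, adjusted p = 0.0773), with a replicate block (0.37, adjusted p = 0.0822) and in the test against 2-fold (0.38). It ranged from 0.27 to 0.50 as single arrays were left out. Rgs2 (1.44) was not called against 2-fold (1.44). Rgs16 gained a call without the trend (-0.48) and in the fit on means over probe sets (-0.48), which only its brightest set entered. It had no value under the filter at the 60th percentile. Rgs19 reversed by the mean over probe sets (0.36), and ranged from -0.13 to 0.026 as arrays were left out, turning without the second transgenic array. Members called higher numbered 1 against 2-fold. Over all genes, 2742 were higher and 2706 lower; every probe set gave 5358 and 5971, the test against 2-fold gave 325 and 396, and leaving out arrays gave 1895 to 2752 higher and 1768 to 2740 lower (1768 without the first transgenic array). Deviations of same-numbered arrays from their group means correlated at -0.03 and -0.08. The deviations of the 2 transgenic arrays mirror each other, so these values do not settle whether the replicate numbers pair the samples. With the replicate block 2282 genes were higher and 2351 lower. Of 288 list counts, 250 stayed within 1.5 times and 38 moved. The cause of each shift was not tested. Dim sets, such as those of Rgs18, lie where signal over background limits any comparison.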
